A study of Bos taurus with 3 samples.

Results

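The miR-29 family was described in small RNA of bovine milk-derived extracellular vesicles (BM-EVs), small lipid-bound carriers of protein and RNA found in milk. The members bta-miR-29a, bta-miR-29b and bta-miR-29c were chosen by name as known regulators of DNA methyltransferases and collagens, and they were 3 of the 745 miRNAs listed in at least 1 library. All 3 members were listed in every library. The vesicles came from pasteurized skimmed Bos taurus milk bought in a store and were isolated by acidification and salting-out with ammonium sulfate. The labels give the milk as normal and untreated, and there was 1 condition with 3 libraries and no other group. Each library was made from 100 ng of total RNA, and unique molecular indices (UMIs) were used, which tag single RNA molecules before amplification, so 1 UMI stands for 1 molecule and not for its PCR copies. Milk lots that differed in expiration date served as biological replicates in the work on isolated vesicles, but which lot gave each library is not stated in the labels or methods. The spread between libraries may therefore be biological, technical or both. No age, breed or number of cows is given in the sources used here.

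The miR-29 family is a small group of conserved miRNAs that share the same seed, the stretch near the 5′ end that pairs with target mRNAs. In human and mouse cells the family lowers the de novo DNA methyltransferases DNMT3A and DNMT3B, which place new methyl marks on DNA, and a series of collagen and other extracellular matrix mRNAs. In cultured mammary epithelial cells of dairy cows it has been studied as a regulator of the same methyltransferases. The mature miR-29a and miR-29c are near-identical in sequence, so UMIs may be split between them by the authors' counting and their separate levels are uncertain to that extent. In human cells miR-29b differs from the others in a 3′ end that directs it to the nucleus.

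The miRNA UMIs summed to between 77225 and 373239 per library, with the highest total in library 2, and the Rfam UMIs to between 863833 and 1937450. The lowest listed count was 11, so a miRNA without a listed count had at most 10 UMIs and is not known to be absent. Over the 435 miRNAs that all libraries list, the counts of each pair of libraries differed far beyond sampling (chi-square of 10.1 or more for each degree of freedom). Marker miRNAs of cell types were summed as a description. Their lists were chosen with earlier results of these data known, so the sums do not test the label of a milk product. The 6 miRNAs of the epithelial list were listed in every library and held 9.40 to 11.9% of the miRNA UMIs. They were led by miR-148a with a mean of 5.18% and miR-200c with 3.33%. MiR-148a is also counted below among the DNA methyltransferase miRNAs, and whether it is restricted to epithelium was not examined. The epithelial sum depends strongly on it. The 4 white blood cell miRNAs held 0.148 to 0.253%, and of the 3 red blood cell miRNAs only miR-486 was listed, at 0.00991 to 0.0324%. The 3 muscle miRNAs held 0.00375 to 0.0311%, and the liver miR-122 was not listed in library 1 and held 0.00482 and 0.0196% in libraries 2 and 3.

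The members come from paired hairpin genes at separate places of the cattle genome. In RefSeq on ARS-UCD2.0, MIR29A lies on chromosome 4 from 94636467 to 94636530 and MIR29B-1 from 94636842 to 94636922, with 311 bases between them. Both overlap the long non-coding RNA LOC107131356, which spans 94601494 to 94850026. MIR29B-2 lies on chromosome 16 from 75577046 to 75577126 and MIR29C from 75577606 to 75577693, with 479 bases between them and no other annotated gene over either. The protein-coding CD46, a complement regulator, has its nearest edge 4327 bases from MIR29C. The mature bta-miR-29b is made from both MIR29B-1 and MIR29B-2, so its UMIs cannot be assigned to a chromosome. Cattle have a further pair with miR-29 names, MIR29E from 75660374 to 75660454 and MIR29D from 75660913 to 75661000, 82680 bases from MIR29C on chromosome 16. This pair has hairpin lengths of 81 and 88 bases, the same as MIR29B-2 and MIR29C, and 458 bases between the hairpins. Both hairpins of this pair fall within the span of the protein-coding LOC518224, and whether they lie in an exon or an intron was not determined here.

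**Figure D1:**
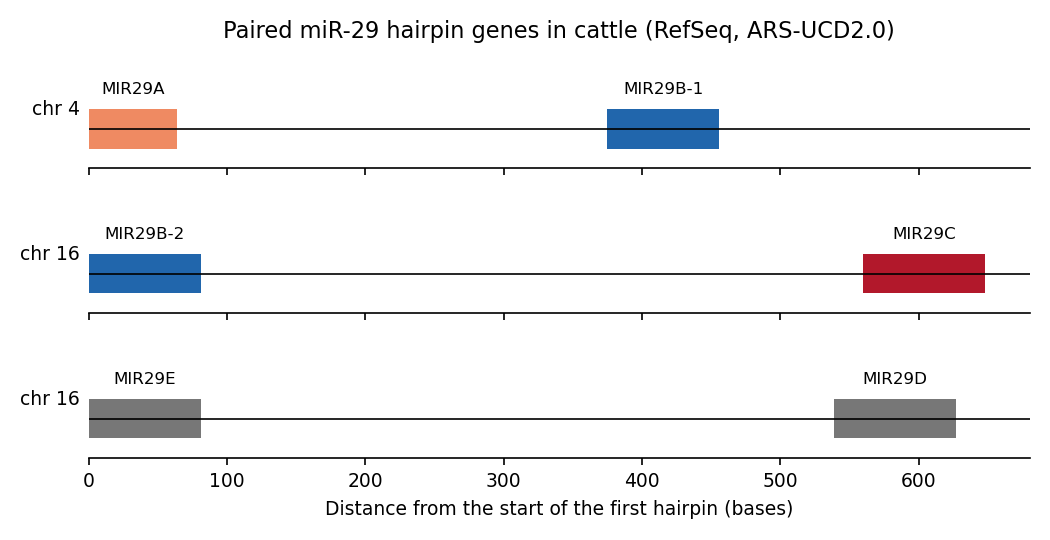
Paired miR-29 hairpin genes of cattle in RefSeq ARS-UCD2.0, drawn to scale by the distance in bases from the start of the first hairpin of each pair. The pair on chromosome 4 has 311 bases between its hairpins, and the pairs on chromosome 16 have 479 and 458.

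The 3 members together were a small part of the vesicle miRNAs. They had 780, 6372 and 1048 UMIs in libraries 1, 2 and 3. Their share of the miRNA UMIs was 1.01% in library 1 (Wilson 95% confidence interval 0.942 to 1.08%), 1.71% in library 2 (1.67 to 1.75%) and 1.03% in library 3 (0.967 to 1.09%). Library 2 stood above the others and its interval overlapped neither, while the intervals of libraries 1 and 3 overlapped. The mean share was 1.25% ± 0.398 (SD, n = 3 libraries). All intervals cover counting error only. Of all miRNA and Rfam UMIs the family made up 0.0715%, 0.276% and 0.109%, or 0.152% ± 0.109.

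MiR-29c, the member encoded on chromosome 16 alone, was the most abundant. It had 530, 4417 and 695 UMIs in libraries 1, 2 and 3. Its share was 0.686% (0.630 to 0.747%), 1.18% (1.15 to 1.22%) and 0.681% (0.632 to 0.733%), with a mean of 0.850% ± 0.289 (SD, n = 3). Libraries 1 and 3 were nearly equal and library 2 was higher. MiR-29c took rank 17 of 507 listed miRNAs in library 1, 13 of 622 in library 2 and 16 of 628 in library 3, and rank 13 of 745 by mean share. Just above it by mean share was miR-191 with 1.35% ± 0.640, which exceeded miR-29c in every library. Just below it was miR-141, an epithelial miRNA, with 0.840% ± 0.0203. MiR-29c was higher than miR-141 in library 2 only, so the order of this pair does not hold beyond the spread between libraries.

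MiR-29a, the member encoded on chromosome 4 alone, came second. It had 206, 1706 and 302 UMIs in libraries 1, 2 and 3, which were shares of 0.267% (0.233 to 0.306%), 0.457% (0.436 to 0.479%) and 0.296% (0.264 to 0.331%). Library 2 was again the highest, and the intervals of libraries 1 and 3 overlapped. The mean was 0.340% ± 0.103 (SD, n = 3), and the rank was 39, 26 and 35 in the libraries and 31 by mean share. Its neighbours by mean share were miR-21-5p, a miRNA raised in many growing and inflamed tissues, with 0.358% ± 0.0422, and let-7i with 0.320% ± 0.0482. MiR-29a exceeded miR-21-5p in library 2 only and let-7i in 2 of 3 libraries, so neither neighbour differed from it beyond the spread.

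MiR-29b, although it has a hairpin in each of the pairs on chromosomes 4 and 16, was the least abundant of the 3 members. It had 44, 249 and 51 UMIs in libraries 1, 2 and 3, and shares of 0.0570% (0.0424 to 0.0765%), 0.0667% (0.0589 to 0.0755%) and 0.050% (0.0380 to 0.0657%). The 3 intervals overlapped one another, so no difference between libraries was detectable at this depth. The mean was 0.0579% ± 0.00841 (SD, n = 3). MiR-29b ranked 142, 87 and 171 in the libraries and 121 by mean share, beside miR-1343-5p with 0.0583% ± 0.0107 and miR-12011 with 0.0576% ± 0.0519, which were higher and lower than miR-29b in different libraries.

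**Figure D2:**
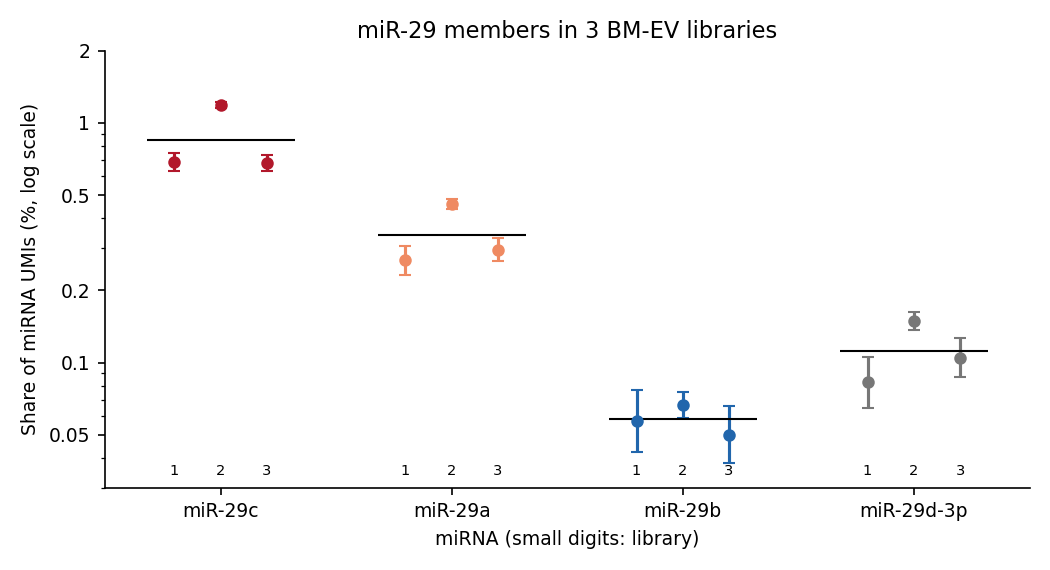
Share of the miRNA UMIs (%, log scale) of miR-29c, miR-29a, miR-29b and miR-29d-3p in libraries 1, 2 and 3, with points for libraries, bars for the Wilson 95% confidence intervals and lines for the means. MiR-29c lies between 0.681 and 1.18% and miR-29b between 0.050 and 0.0667%, and library 2 is the highest for each miRNA.

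The order of miR-29c above miR-29a above miR-29b was the same in all 3 libraries, and within each library the Wilson intervals of the members did not overlap. MiR-29c exceeded miR-29a by 0.510 ± 0.188 percentage points and miR-29a exceeded miR-29b by 0.282 ± 0.0956 percentage points (p = 0.25 each by an exact permutation of signs, two-sided, the smallest p that 3 libraries allow). The ratio of miR-29c to miR-29a UMIs was 2.57, 2.59 and 2.30 in libraries 1, 2 and 3, with a mean of 2.49 ± 0.162. The ratio of miR-29c to miR-29b, whose hairpin MIR29B-2 is paired with MIR29C, was 12.0, 17.7 and 13.6. The ratio of miR-29a to miR-29b, whose hairpin MIR29B-1 is paired with MIR29A, was 4.68, 6.85 and 5.92. Members encoded side by side were thus not counted at equal levels in any library. Only ligated and counted molecules were measured, and the part of the library chemistry in these ratios was not tested.

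The mixture of members varied less between libraries than the level of the family. MiR-29c made up 67.9% (64.6 to 71.1%), 69.3% (68.2 to 70.4%) and 66.3% (63.4 to 69.1%) of the family UMIs in libraries 1, 2 and 3, with a mean of 67.9% ± 1.50. MiR-29a made up 26.4%, 26.8% and 28.8%, with a mean of 27.3% ± 1.30, and miR-29b 5.64%, 3.91% and 4.87%, with a mean of 4.81% ± 0.868. The coefficient of variation of the family share was 31.9%. These percentages within the family do not depend on the library total or on scaling. Of 9 odds ratios of a member against the others between library pairs, 1 had a 95% interval without 1, with no adjustment for their number. It was that of miR-29b in library 2 over library 1, at 0.680 (0.487 to 0.969), and rests on 249 UMIs in library 2 against 44 in library 1.

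**Figure D3:**
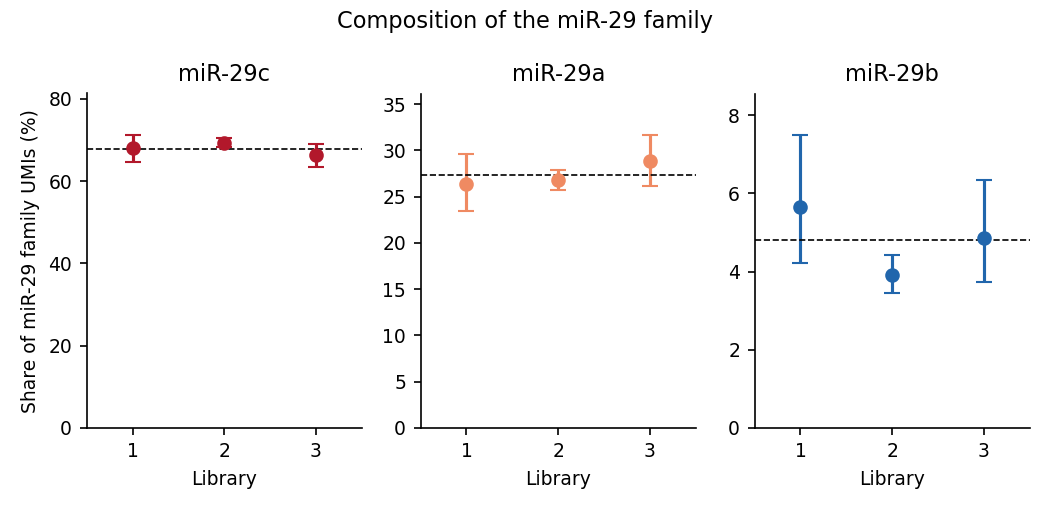
Share of the miR-29 family UMIs (%) held by miR-29c, miR-29a and miR-29b in libraries 1, 2 and 3, with Wilson 95% confidence intervals as bars and the mean of the libraries as a dashed line. The axes of the panels start at 0 and differ in range, and miR-29c stays between 66.3 and 69.3%.

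The difference between libraries was set against all other miRNAs with Fisher's exact test of each miRNA against the remaining miRNA UMIs, adjusted over all miRNAs listed in both libraries. This test compares libraries and not conditions. Its p-values and the intervals of the ratios cover counting error only, while each pair of libraries differed far beyond it. In library 2 over library 1, miR-29c was 1.72-fold higher (95% interval 1.58 to 1.89, Fisher's exact test, adjusted p = 7.9e-36) and miR-29a 1.71-fold higher (1.48 to 1.98, adjusted p = 5.4e-14). Of 466 miRNAs tested in this pair, 9.44% were called higher and 73.2% lower in library 2. Such called shares are over miRNAs of all counts and were not computed for miRNAs as abundant as miR-29c and miR-29a. MiR-29b was at 1.17 times its share in library 1 (0.850 to 1.61, adjusted p = 0.42) and was not called. In library 2 over library 3, miR-29c was 1.74-fold higher (1.60 to 1.88, adjusted p = 4.1e-46) and miR-29a 1.54-fold higher (1.37 to 1.75, adjusted p = 2.0e-12), where 7.49% of 521 miRNAs were called higher and 68.3% lower. MiR-29b was at 1.34 times its share in library 3 (0.988 to 1.80, adjusted p = 0.085). In library 3 over library 1, none of the 3 members was called, with ratios of 1.11 for miR-29a, 0.877 for miR-29b and 0.992 for miR-29c and unadjusted exact p of 0.26, 0.54 and 0.91, where 13.0% of 460 miRNAs were called higher and 12.8% lower.

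Ratios above 1 in library 2 over library 1 were found for all 3 members and for a minority of the miRNAs listed in every library. The median ratio of library 2 over library 1 among the 435 miRNAs listed in every library was 0.382, and 70 of them had a ratio above 1. MiR-29c ranked 20, miR-29a 21 and miR-29b 54 of the 435 by this ratio. Abundant miRNAs lay higher. Of the 435, 188 had 30 UMIs or more in each library, and their median ratio was 0.598. The median of the 435 thus rests largely on miRNAs with low counts. Among the 58 miRNAs that had 100 UMIs or more in each library the median was 0.953, and 27 had a ratio above 1. There, miR-29c ranked 6 and miR-29a 7, and miR-29b did not reach the minimum. By the ratio of library 2 over library 3, miR-29c had the highest value of the 58, 1.74, and miR-29a the next, 1.54, followed by miR-191 with 1.53. Of the 58, 35 had a ratio above 1 in this pair. Among the 435 miRNAs the highest ratio of library 2 over library 3 was 1.97. There, miR-29c ranked 3, miR-29a 6 and miR-29b 20, so the top places depend on the minimum.

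The ratio of the summed family was 1.69 (1.57 to 1.82) in library 2 over library 1 and 1.02 (0.927 to 1.11) in library 3 over library 1. Its size depended on the scale. Over all miRNA and Rfam UMIs the ratio of library 2 over library 1 was 3.86. With TMM scaling over the 435 miRNAs, which centres the libraries on their typical miRNA, it was 4.09. On the log2 scale the family lay 2.15 above the median of the 435 miRNAs in library 2 over library 1 and 0.13 above it in library 3 over library 1, and these distances are the same under each scaling by construction. They depend on the miRNAs taken as the reference, and most of the 435 had fewer than 30 UMIs in at least 1 library. Relative to the median of the 58 abundant miRNAs, the family ratio was 1.77 in library 2 over library 1. In library 3 over library 1 it was 1.06. Library 2 also had the largest miRNA total, 373239 UMIs against 77225 in library 1 and 102058 in library 3, and the part of depth or RNA quality in these ratios was not tested.

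**Figure D4:**
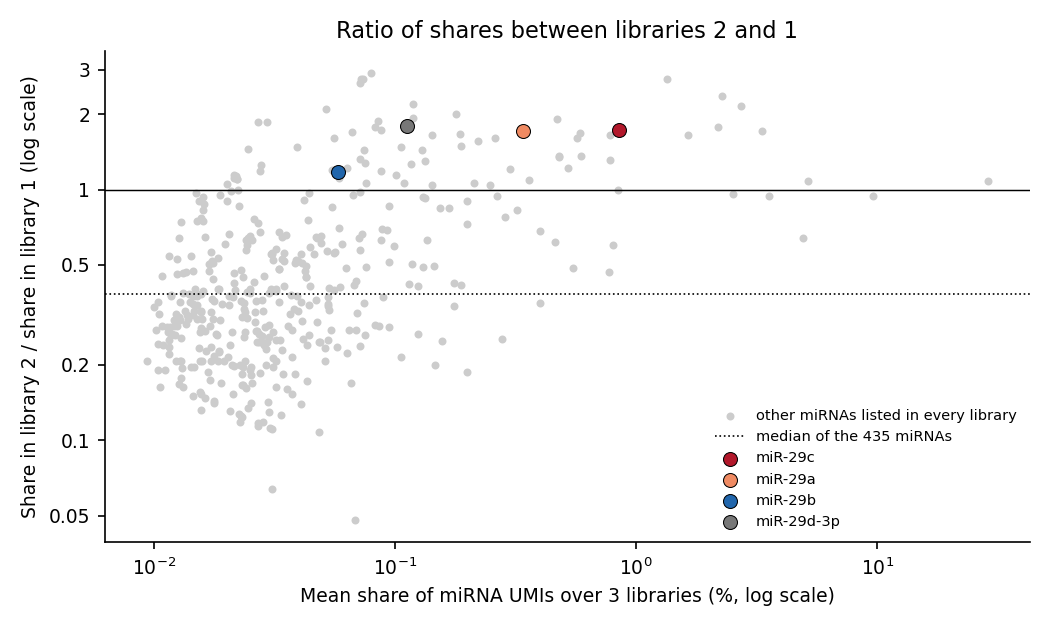
Ratio of the share in library 2 to the share in library 1 (log scale) against the mean share over the 3 libraries (%, log scale) for the 435 miRNAs listed in every library, with the miR-29 miRNAs in colour, a solid line at 1 and a dotted line at the median of 0.382. MiR-29c, miR-29a and miR-29d-3p lie between 1.71 and 1.80 and miR-29b at 1.17.

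Cattle miRNAs that carry the miR-29 name but are not among the 3 members were listed as well. MiR-29d-3p, from the third pair of hairpins, had 64, 556 and 107 UMIs in libraries 1, 2 and 3, and shares of 0.0829%, 0.149% and 0.105%, with a mean of 0.112% ± 0.0337 (SD, n = 3). It was higher than miR-29b and lower than miR-29a in every library, but in library 1 its Wilson interval (0.0649 to 0.106%) overlapped that of miR-29b. Like miR-29a and miR-29c, it was called higher in library 2 than in library 1, by 1.80-fold (1.39 to 2.33, Fisher's exact test, adjusted p = 6.7e-06), and than in library 3, by 1.42-fold (1.16 to 1.75, adjusted p = 0.0013). The ratio of miR-29c to miR-29d-3p was 8.28, 7.94 and 6.5. With miR-29d-3p added, the family held 1.36% ± 0.430. The other arm of the same hairpin, miR-29d-5p, and miR-29e each had 17 UMIs in library 2, a share of 0.00455% (0.00284 to 0.00729%), and were not listed in libraries 1 and 3, where they had at most 10 UMIs.

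MiRNAs with a pattern like that of the family were sought by the root mean square distance between log2 shares centred over the 3 libraries, among the 185 other miRNAs that had 30 UMIs or more in each library. MiR-26a was the nearest to the summed family, at a distance of 0.06, with shares of 0.622%, 1.03% and 0.687% in libraries 1, 2 and 3. MiR-23a followed at 0.10, with 0.0622%, 0.110% and 0.0745%, and miR-660 at 0.12, with 0.127%, 0.253% and 0.157%. MiR-29d-3p was in place 5, at 0.13. For miR-29a and miR-29c taken alone, miR-26a and miR-23a were likewise the nearest. For miR-29b they were miR-21-5p, at a distance of 0.04, and miR-148a, at 0.06, and miR-29d-3p was only in place 42. With 3 libraries such distances are a description, and the miRNAs share the same libraries and depth. With a minimum of 100 UMIs in each library the next after miR-26a were miR-200c and miR-151-3p, since miR-23a and miR-660 did not reach that minimum.

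The family was close in level to the miR-17/92 and miR-15/16 families and well below the miR-30 family. The miR-29 share was 1.25% ± 0.398, against 1.17% ± 0.163 for the miR-17/92 cluster and its paralogs, which promote cell proliferation, with 9 of 13 names listed and miR-92a (0.781% ± 0.106) as the leading one. MiR-29 was above the miR-17/92 list in libraries 1 and 2 and below it in library 3. The miR-15/16 family, which represses cell cycle and survival genes, held 0.966% ± 0.160, with 4 of 7 names listed, nearly all of it miR-16a and miR-16b, and was below miR-29 in every library. Counts of miR-16a (326, 2126 and 456 UMIs) and miR-16b (323, 2118 and 462) were nearly equal in each library. Whether the same molecules were counted under both names could not be checked, and the miR-15/16 sum is uncertain to that extent. The miR-30 family held 4.75% ± 1.57 with all 6 names listed and was above miR-29 in every library. In library 2 over library 1 the summed shares had a ratio of 1.69 for miR-29, against 1.32 for miR-17/92, 1.36 for miR-15/16 and 2.0 for miR-30. These ratios describe a pair of libraries, and their differences were not tested.

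**Figure D5:**
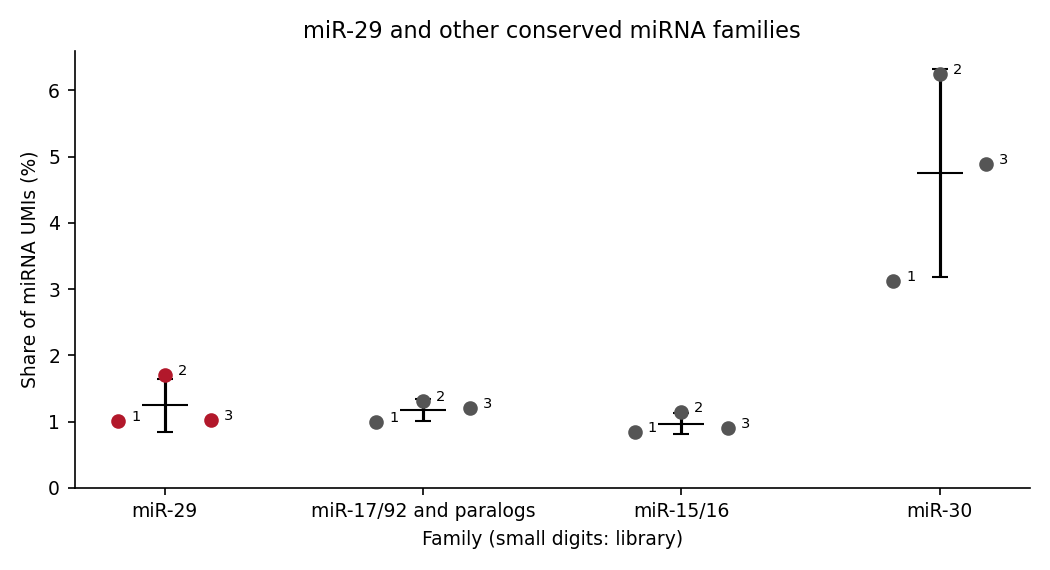
Share of the miRNA UMIs (%) of the miR-29 family beside the miR-17/92, miR-15/16 and miR-30 families, with points for libraries 1, 2 and 3, horizontal marks for the means and bars for the SD. The miR-29 points of libraries 1 and 3 lie at 1.01 and 1.03%, among those of miR-17/92 and miR-15/16, and library 2 lies at 1.71%.

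Other miRNAs known mainly from human and mouse cells for a shared role were set beside the family. Of 7 miRNAs that repress a DNA methyltransferase, 6 were listed and together held 5.46% ± 0.507 of the miRNA UMIs, nearly all of it miR-148a with 5.18% ± 0.533, which targets the maintenance enzyme DNMT1. Without miR-148a the highest of this list was miR-342 with 0.133% ± 0.0170, below miR-29a and miR-29c and above miR-29b. MiR-148b held 0.0601% ± 0.0201. The list left out miR-148d, another miRNA with the miR-148 name. MiR-148d had 857, 2484 and 645 UMIs in libraries 1, 2 and 3, more than miR-29a in each. MiR-101 and miR-143, which target DNMT3A as the miR-29 family does, held 0.0548% ± 0.00763 and 0.0225% ± 0.0120. Further target enzymes that the miRNAs of this list may share with miR-29 were not compared. Of 9 miRNAs tied to extracellular matrix and fibrosis, 8 were listed with a sum of 1.29% ± 0.162, led by miR-200a (0.593% ± 0.0974), miR-21-5p and miR-200b (0.261% ± 0.0625). The matrix and fibrosis list shares miR-200a and miR-200b with the epithelial markers and miR-30c with the miR-30 family, so these lists are not separate groups. The 3 miR-29 members together were above the matrix and fibrosis list in library 2 only. The mRNA targets of miR-29 were not measured in these libraries.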

How the data were processed

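Small RNA libraries of BM-EVs were made by the authors with the QIAseq miRNA Library Kit. Reads were trimmed of adapters, filtered on quality and assigned by the authors to miRBase first, and what was left to Rfam. Tools named in the processing notes of the submitters are FastQC, cutadapt 2.7 and Bowtie 1.2.2. Database versions, mismatches, the use of strand and the handling of multiple matches are not given in the sources used here. For each library, the deposited values are whole-number UMI counts that were not normalized, in a table of mature miRNAs and a table of Rfam sequences.

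Libraries were numbered by the replicate in the sample labels. The deposited tables of libraries 2 and 3 carry other running numbers of their own, which were not used. Counts of the members were divided by the summed miRNA UMIs of the library and averaged over 3 libraries. Unlisted miRNAs were entered as 0 in sums and means. Wilson 95% intervals, Fisher's exact tests with Benjamini-Hochberg adjustment over all miRNAs listed in both libraries (threshold 0.05) and exact sign permutation tests were computed with scipy 1.17.1 in Python 3.11.15. The plan had adjusted Fisher's tests over the members alone, which was replaced. Scaling used edgeR 4.0.16 (TMM) and DESeq2 1.42.0 in R 4.3.3. Fisher's exact test and TMM scaling were checked on simulated counts, and the pattern distance on simulated profiles. The sign permutation test was not simulated. The simulated counts held sampling error only, while the real libraries differed far beyond it. Named miRNAs are the members, other listed miR-29 names, neighbours by mean share, the 3 nearest in pattern, and leading members of each list. The members and lists were chosen with earlier results of these data known. Gene positions are from RefSeq ARS-UCD2.0, where all 6 miR-29 hairpins were found by symbol. Alternatives were other denominators, scalings, minimums and family members, pooled UMIs, and leaving out each library. A planned ranking by seed was not run.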

Additional observations from a re-analysis of the deposited data

How the results depend on the processing

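The mean family share of 1.25% was 0.152% over all miRNA and Rfam UMIs and 2.04% over miRNA UMIs without let-7b and let-7a-5p, as the denominators differ. It ranged from 1.02% (without library 2) to 1.37% (without library 1) when 1 library was left out, and was 1.48% with UMIs pooled. The miR-29c share of the family, 67.9%, was 62.2% with miR-29d-3p added. The family ratio of library 2 over library 1, 1.69, was 3.86 over all UMIs, 4.09 with TMM scaling and 4.28 with DESeq2 size factors. That of library 3 over library 1, 1.02, was 1.52 over all UMIs and 1.16 with DESeq2 size factors. Of the 3 nearest miRNAs in pattern, 1 was kept with at least 100 UMIs in every library. Over all UMIs the lists held 0.137% (miR-17/92), 0.114% (miR-15/16), 0.582% (miR-30), 0.624% (DNA methyltransferase miRNAs) and 0.150% (matrix and fibrosis miRNAs). The other 31 alternative values were counted as unchanged. They stayed within 1 SD or within the 95% interval of a ratio, except for the pattern distance. With TMM scaling it kept all 3 nearest miRNAs, as it must by construction. The family share with DESeq2 size factors, 1.23%, was anchored to the mean library total. Its closeness to 1.25% depends on that choice. Among the 31 values, the ratio of library 3 over library 1, whose interval includes 1, was 0.970 without let-7b and let-7a-5p. It so fell on the other side of 1. Of the 31 values, the ratios taken relative to the median of miRNAs with at least 100 UMIs were chosen after seeing the data. A mean without 1 of 3 libraries cannot move by 1 SD. Clopper-Pearson limits of the family share were within 0.0012 percentage points of the Wilson ones, and those of single members were not computed. No paired analysis was possible because there was a single group. MiR-29b, with 44 to 249 UMIs, is the member most limited by depth.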
